A study of Mus musculus with 9 samples.

Results

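The genes described here are 26 genes of cholesterol and fatty acid synthesis and their regulators, measured by RNA sequencing (RNAseq) in cultures of mouse embryonic fibroblasts (MEFs). They were chosen by name, as enzymes and regulators of the pathway, from a count table of 43629 genes. All 26 were among the 14567 genes with enough counts to be tested, and none of them lies in the region that is duplicated in the mutant. Dp1Tyb mice are a model of Down syndrome that carries a duplication of the stretch of mouse chromosome 16 from *Lipi* to *Zbtb21*, the part of the chromosome that is orthologous to human chromosome 21. The cultures came from 4 wild-type (WT) embryos and 5 Dp1Tyb littermates on the strain that the labels give as C57BL/6J.129P2, backcrossed over many generations to C57BL/6JNimr, each embryo taken at E14.5 and giving its own culture of cells from the body without head and viscera. All cells were untreated, were grown in serum and were harvested after 2 passages, so the groups differ only in genotype as far as the labels state. The labels' culture names place WT 1 and Dp1Tyb 1 in a set numbered 1 and the other 7 cultures in a set numbered 2, without stating what a set is. The study compared the genotypes to ask how the duplication changes expression across the genome, and for the 26 genes the same comparison shows whether the pathway differs between genotypes and how far it varies between cultures.

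Cells make cholesterol from acetyl-CoA through mevalonate, isoprenoid diphosphates and squalene, and make fatty acids from acetyl-CoA through malonyl-CoA. Both branches are switched on by the sterol regulatory element-binding proteins (SREBPs), membrane-bound transcription factors that are held in the endoplasmic reticulum by INSIG proteins when sterol is plentiful and are cleaved and released to the nucleus when it is scarce. SREBPs bind the sterol regulatory element (SRE) in promoters, usually next to sites for the factors NF-Y and Sp1, so the genes of the pathway tend to move together when the sterol supply of a cell changes.

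Promoters were read from RefSeq (build GRCm38.p6) as the 250 bases before each annotated start, which were available for 20 of the 26 genes in 25 windows, since some genes have several starts. *Fdps*, *Fdft1*, *Sqle*, *Stard4*, *Scd1* and *Scd2* had no window. The motifs were searched on both strands in these windows and in all 32851 windows of the table. CCAAT, the core of the NF-Y site, was present in 19 of the 25 windows (76.0%) and in 33.8% of all windows. The GC box GGGCGG, a site of Sp1, was present in 72.0% and in 32.7% of all windows, and the E-box CACGTG in 16.0% and in 6.02% of all windows. A strict form of the SRE, TCACNCCAC, was found only before *Hmgcs1*, against 1.05% of all windows. Of the genes with a window, *Acaca* and *Elovl6* had no CCAAT in any of them. The only *Acaca* window, at chr11:84195188-84195437, lies inside the gene, which starts at 84129672, so the bases before that start were not searched. Of the 25 windows 10 held no annotated exon base. The *Dhcr7* window with CCAAT was wholly exon, as were the windows of *Idi1* and *Tm7sf2*. The motif counts are matches of letters, and motifs may overlap each other. The 4 windows shown here hold no annotated exon and are written 5′ to 3′ on the strand of the gene, with each CCAAT (or ATTGG on the other strand) and the SRE in capitals. They are that of *Hmgcs1*, for its SRE, that of *Pmvk*, the only gene whose genotypes narrowly did not overlap, and those of *Fasn* and *Sc5d*, the most variable genes with such a window. They lie at chr13:119690101-119690350 (plus strand), chr3:89454291-89454540 (plus strand), chr11:120824548-120824797 (minus strand) and chr9:42264301-42264550 (minus strand).
Hmgcs1: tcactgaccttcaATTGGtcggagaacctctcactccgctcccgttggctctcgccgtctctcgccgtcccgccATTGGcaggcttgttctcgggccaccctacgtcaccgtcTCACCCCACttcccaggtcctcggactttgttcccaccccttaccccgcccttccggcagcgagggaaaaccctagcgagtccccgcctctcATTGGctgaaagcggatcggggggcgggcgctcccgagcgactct
Pmvk: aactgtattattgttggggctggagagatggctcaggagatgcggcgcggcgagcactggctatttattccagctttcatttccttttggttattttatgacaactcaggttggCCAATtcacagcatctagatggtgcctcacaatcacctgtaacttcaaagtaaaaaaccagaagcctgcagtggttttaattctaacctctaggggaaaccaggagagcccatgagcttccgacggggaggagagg
Fasn: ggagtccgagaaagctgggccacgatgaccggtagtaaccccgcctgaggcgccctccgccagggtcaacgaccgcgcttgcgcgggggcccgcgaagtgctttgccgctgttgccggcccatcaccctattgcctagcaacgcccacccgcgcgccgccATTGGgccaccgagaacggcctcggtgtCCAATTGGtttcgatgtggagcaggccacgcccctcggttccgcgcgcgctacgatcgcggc
Sc5d: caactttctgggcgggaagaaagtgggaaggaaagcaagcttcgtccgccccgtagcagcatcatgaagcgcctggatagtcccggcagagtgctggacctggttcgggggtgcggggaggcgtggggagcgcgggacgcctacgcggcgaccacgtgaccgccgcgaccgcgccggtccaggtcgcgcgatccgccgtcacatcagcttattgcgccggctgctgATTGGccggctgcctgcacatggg
In the *Hmgcs1* window the SRE starts at position -137 relative to the start and CCAAT occurs 3 times, while *Fasn* has 3 matches of which a pair overlap.

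Total counts per culture ranged from 25571442 to 30009361 in WT and from 24804539 to 26782380 in Dp1Tyb. The 26 genes had between 318 and 40929 counts in a culture, so the counting error of a single value was several percent for the lowest genes and less for the others. Values are given as TMM-scaled CPM, the count of a gene relative to the scaled total of its library, and levels of different genes are compared only after division by exon length (RPKM). The summed CPM of 9 fibroblast markers was 30700 to 45800 in WT and 22900 to 47500 in Dp1Tyb, with Dp1Tyb 2 lowest. Of 7 adipocyte markers *Cidec* was at 0 in all 9 cultures and *Adipoq* and *Plin1* had at most 2 counts, but the other 4 were expressed, *Lpl* at 13.3 to 176 CPM, *Fabp4* at 8.68 to 15.5 CPM, *Cebpa* at 2.42 to 12.1 CPM and *Pparg* at up to 3.21 CPM. The hepatocyte markers summed to at most 0.863 CPM. In such bulk RNA, fewer cells of a type and less RNA per cell cannot be told apart.

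**Figure D1:**
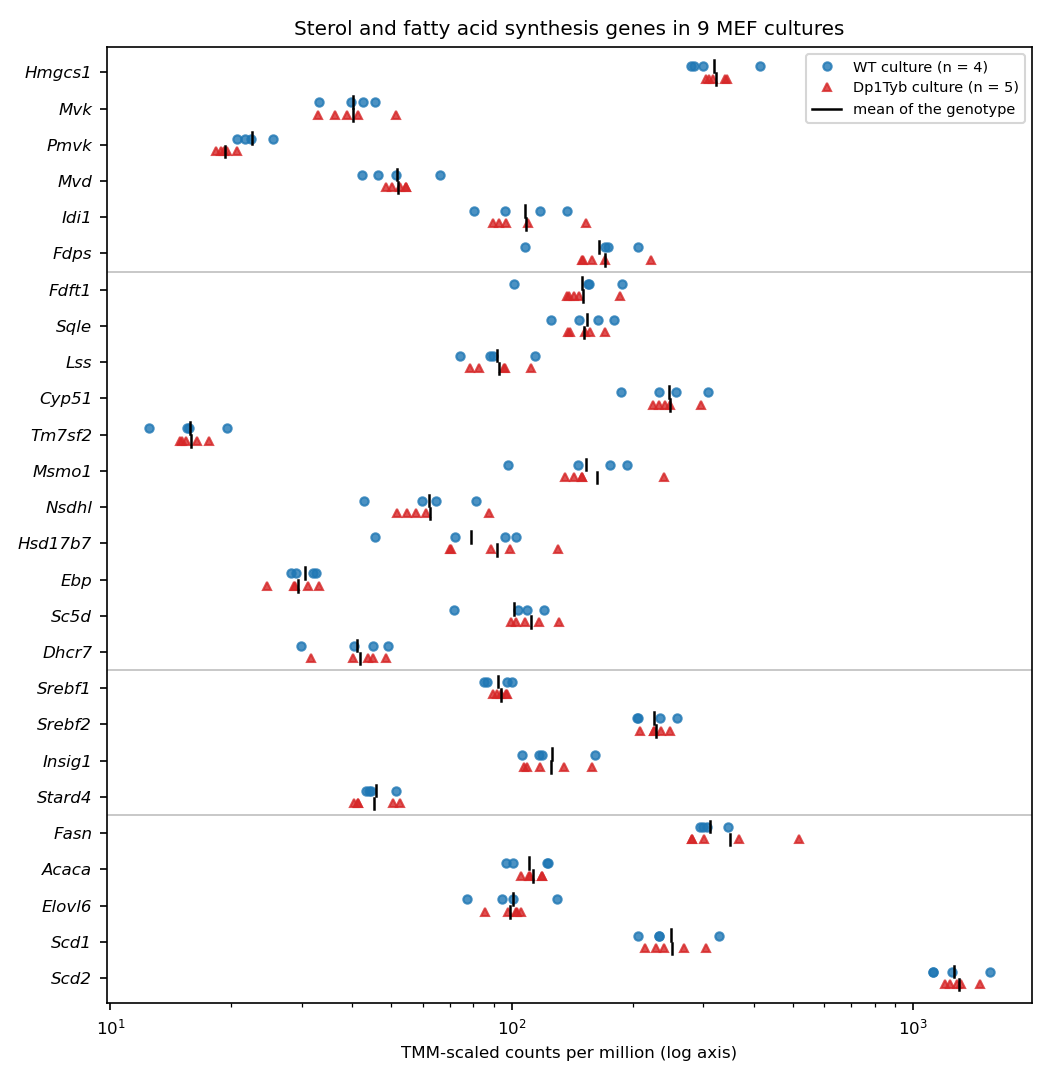
TMM-scaled CPM (log axis) of each of the 26 genes in each culture, circles for the 4 WT and triangles for the 5 Dp1Tyb cultures, with a bar at the mean of each genotype; lines separate mevalonate steps, squalene to cholesterol, regulators and transport, and fatty acid synthesis. Means of the genotypes lie close together for nearly every gene, and only *Pmvk* has groups that do not overlap, by a very small gap.

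Expressed per length, a stearoyl-CoA desaturase had by far the highest level of the 26 genes. *Scd2*, which introduces a double bond into saturated fatty acids, stood at 234 ± 26.8 RPKM (SD, n = 9 cultures). Next came *Hmgcs1* at 69.8 ± 8.67 RPKM, *Cyp51* at 55.8 ± 7.45 and *Scd1* at 51.1 ± 8.08 RPKM, and these neighbours in the order lay within about 2 SD of each other. The regulators were at 31.6 ± 2.59 RPKM for *Srebf2* and 16.5 ± 1.01 for *Srebf1*, whose ranges do not meet. The lowest levels were those of *Dhcr7* at 7.15 ± 1.29, *Acaca* at 6.55 ± 0.653 and *Tm7sf2* at 3.61 ± 0.472 RPKM. *Scd1* and *Scd2* are close paralogs and reads that aligned to several places were discarded, so their levels are uncertain to that extent. RPKM here divides by all annotated exon bases of a gene, which can exceed the length of the transcripts expressed. The order between genes therefore depends on the annotation and is not a ranking of mRNA molecules.

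None of the 26 genes differed between Dp1Tyb and WT MEFs by edgeR's quasi-likelihood test at an adjusted p below 0.05, where 24 of all 14567 genes (0.165%) were called. The adjusted p was 0.9997 for each of the 26, and DESeq2 also called none of them. At an unadjusted p below 0.05 there was 1 gene, *Pmvk*, or 3.85% of the 26, against 3.13% of all genes tested and 1.77% in the direction of *Pmvk*, lower in Dp1Tyb. Log2 fold changes ran from -0.22 for *Pmvk* to 0.21 for *Hsd17b7* with a median of 0.014, and their median size without sign was 0.021, against 0.092 over all genes tested and 0.068 over the 9271 tested genes above 10 CPM. The log2 fold change was above 0 for 19 of the 26 and for 51.0% of all genes. That count rested on single cultures, since 7 genes were below 0 with all cultures, 20 without WT 1, 16 without WT 2 or without Dp1Tyb 2, 12 without WT 3, 10 without Dp1Tyb 1 and 2 without WT 4 or without Dp1Tyb 5.

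A p value that misses the threshold does not show that the genotypes are alike, so the 95% interval of each fold change was computed from the same fit. The interval held 0 for 25 of the 26 genes. For 24 genes it lay wholly within a fold of 1.5 in either direction. The exceptions were *Hsd17b7*, whose interval on the log2 scale was -0.36 to 0.79, and *Msmo1*, with -0.41 to 0.59, so for these a change of over 1.5-fold could be neither shown nor excluded with 9 cultures. The narrowest interval was that of *Srebf1*, from -0.13 to 0.18.

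**Figure D2:**
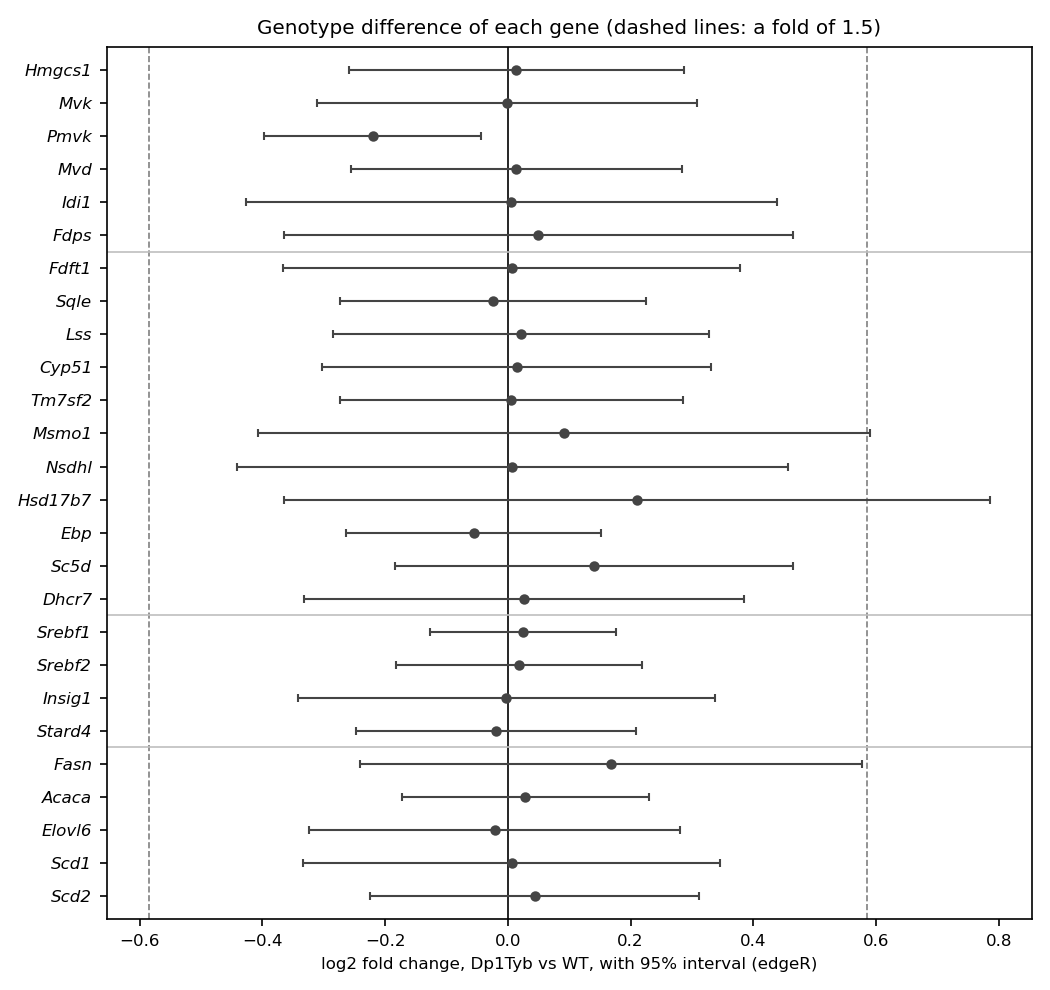
Log2 fold change of each gene in Dp1Tyb vs WT with its 95% interval from edgeR, dashed lines marking a fold of 1.5. All intervals but that of *Pmvk* hold 0, and those of *Hsd17b7* and *Msmo1* reach beyond the line.

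The 6 genes of the mevalonate steps had a median log2 fold change of 0.0098, with none called. *Hmgcs1*, the synthase that makes HMG-CoA, was measured at 279, 299, 285 and 415 CPM in WT 1 to WT 4 and at 340, 316, 304, 342 and 309 CPM in Dp1Tyb 1 to Dp1Tyb 5. The WT values enclosed all the Dp1Tyb values because WT 4 stood above and the other WT cultures below them, and the log2 fold change was 0.014 (SE 0.122, exact permutation p = 0.841). *Mvk* and *Mvd*, the first kinase and the decarboxylase of the pathway, had log2 fold changes of -0.0013 and 0.014.

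*Pmvk*, which encodes phosphomevalonate kinase and lies at chr3:89454541-89469013 on the plus strand, was the only one of the 26 whose genotypes did not overlap. WT cultures had 20.68, 21.6, 22.4 and 25.4 CPM, and Dp1Tyb cultures had 19.2, 20.67, 19.5, 18.4 and 18.9 CPM. The highest Dp1Tyb culture, Dp1Tyb 2, was thus just under the lowest WT culture, WT 1, with log2 deviations of 0.0027 and 0.0030 from the mean of the gene. With DESeq2 size factors in place of TMM, the mean log2 deviation of the 26 genes moved from -0.258 to -0.278 in WT 1. In Dp1Tyb 2 it moved from 0.205 to 0.213. These shifts exceed the gap, and whether *Pmvk* stays without overlap under that scaling was not tested. The log2 fold change was -0.22 (SE 0.079, 95% interval -0.40 to -0.044), with an unadjusted p of 0.0194 and an adjusted p of 0.9997 in edgeR, and an exact two-sided permutation test over all relabelings of the 9 cultures gave p = 0.0159. Groups that did not overlap were seen for 198 genes, 1.36% of those tested, and for 0.673% with Dp1Tyb as the lower group. Since the groups did not overlap, the values of *Pmvk* had to be lower in Dp1Tyb in both sets. The log2 difference was -0.11 in set 1 and -0.26 in set 2. In set 2 the exact permutation p was 0.0286, the smallest that its 35 relabelings allow. These values come from the same 9 cultures that set *Pmvk* apart and are not separate support.

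*Idi1*, the isomerase of the isoprenoid units, and *Fdps*, which joins them into farnesyl diphosphate, varied more. *Idi1* was at 80.5, 118, 96.0 and 137 CPM in WT and at 110, 153, 92.8, 96.9 and 89.6 CPM in Dp1Tyb. *Fdps* was at 108, 174, 171 and 206 CPM in WT and at 171, 222, 150, 158 and 150.2 CPM in Dp1Tyb. For both genes WT 1 was the lowest culture and Dp1Tyb 2 the highest, with WT 4 next to it, and the log2 fold changes were 0.0056 (SE 0.193) and 0.050 (SE 0.185).

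The 11 genes from squalene to cholesterol had a median log2 fold change of 0.014, and none was called. They held the largest difference between cultures. *Hsd17b7*, a sterol keto reductase at chr1:169949535-169969241 on the minus strand, was at 45.7, 103, 72.1 and 96.4 CPM in WT and at 88.6, 130.1, 70.4, 99.1 and 69.95 CPM in Dp1Tyb. Dp1Tyb 2 had 2.85 times the level of WT 1, and the other Dp1Tyb cultures lay inside the WT range. The log2 fold change of 0.21 (SE 0.257) was within that spread (exact permutation p = 0.468) and was 0.022 without WT 1 and 0.051 without Dp1Tyb 2.

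*Msmo1*, the methylsterol monooxygenase, was at 98.0, 176, 146 and 193 CPM in WT and at 150, 239, 136, 149.8 and 143 CPM in Dp1Tyb. *Nsdhl*, a sterol dehydrogenase of the same demethylation, was at 42.7, 59.9, 64.8 and 81.4 CPM in WT and at 57.6, 87.5, 54.8, 60.95 and 51.8 CPM in Dp1Tyb. The same cultures stood at the ends for both genes, WT 1 at the bottom and Dp1Tyb 2 at the top, with 4 Dp1Tyb cultures between them. *Sc5d*, the sterol desaturase, was at 71.9, 109, 103 and 120.3 CPM in WT and at 108, 131, 99.5, 117 and 102 CPM in Dp1Tyb, with a log2 fold change of 0.14 (SE 0.145) that was 0.0093 without WT 1 and 0.076 without Dp1Tyb 2. *Fdft1*, squalene synthase and the first enzyme committed to sterols, was at 101 CPM in WT 1, at 154 to 188 CPM in the other WT cultures and at 137 to 186 CPM in Dp1Tyb.

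*Sqle*, *Lss* and *Cyp51*, which oxidise squalene, close its rings and demethylate lanosterol, had log2 fold changes of -0.024, 0.021 and 0.014 and were all highest in WT 4 and lowest in WT 1. *Lss* ran closest to the rest of the pathway, with r = 0.981 over the 9 cultures between its log2 CPM and the mean of the other 25 genes, given as a description since all genes share the same libraries. The sterol reductase *Tm7sf2*, the lowest of the 26 in RPKM, was at 12.5 to 19.6 CPM over the 9 cultures.

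*Ebp* and *Dhcr7* went against this order. *Ebp*, the sterol isomerase, was at 28.3 to 32.5 CPM in WT and at 24.6 to 33.2 CPM in Dp1Tyb. *Dhcr7*, which reduces the last double bond in one route to cholesterol, was at 45.2, 29.8, 40.3 and 49.2 CPM in WT and at 48.7, 31.7, 45.1, 43.7 and 40.1 CPM in Dp1Tyb. It was low in WT 2 and in Dp1Tyb 2, the culture where *Hsd17b7*, *Msmo1* and *Nsdhl* were at their highest. The r with the mean of the other 25 genes was 0.071 for *Ebp* and -0.092 for *Dhcr7*.

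As a group the regulators varied least. *Srebf1*, which encodes the SREBP that favours fatty acid genes, was at 86.6, 85.4, 97.1 and 100.2 CPM in WT and at 97.4, 89.9, 96.8, 93.9 and 91.8 CPM in Dp1Tyb. *Srebf2*, which encodes the SREBP that favours sterol genes, was at 206, 205 and 234 CPM in WT 1 to WT 3, at 258 CPM in WT 4, and at 208 to 247 CPM in Dp1Tyb. All Dp1Tyb values of both genes lay inside the WT range, and the log2 fold changes were 0.025 (SE 0.068) and 0.018 (SE 0.090). *Insig1*, both a target of the SREBPs and the protein that restrains them, was at 106, 117, 119 and 161 CPM in WT and at 117.4, 158, 135, 109 and 107 CPM in Dp1Tyb, the high values again being those of WT 4 and Dp1Tyb 2. *Stard4*, a cholesterol transfer protein, was at 43.3 to 51.5 CPM in WT and at 40.4 to 52.5 CPM in Dp1Tyb. With 4 genes and none called, the median log2 fold change of this group was 0.0075.

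Fatty acid synthesis had a median log2 fold change of 0.028 over its 5 genes, none of them called. *Fasn*, fatty acid synthase, was at 295, 299.9, 305 and 345 CPM in WT and at 368, 519, 280, 300.1 and 282 CPM in Dp1Tyb. A single culture, Dp1Tyb 2, stood far above the other 8, while 3 Dp1Tyb cultures were at or below the level of WT 3. The log2 fold change was 0.17 (SE 0.183) and was -0.018 without Dp1Tyb 2. *Acaca*, the acetyl-CoA carboxylase that makes malonyl-CoA, was at 96.8 to 123 CPM in WT and at 105 to 119 CPM in Dp1Tyb, and it did not share the peak of *Fasn*. *Elovl6*, which lengthens fatty acids, was at 77.4 to 129.6 CPM in WT and at 85.5 to 106 CPM in Dp1Tyb.

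The desaturases followed WT 4. *Scd1* was at 206, 232, 233 and 328 CPM in WT and at 268, 305, 214, 239 and 228 CPM in Dp1Tyb. *Scd2* was at 1122, 1116, 1250 and 1551 CPM in WT and at 1462, 1317, 1200 and 1282 CPM in Dp1Tyb 1 to Dp1Tyb 4, with 1232 CPM in Dp1Tyb 5. Dp1Tyb cultures lay within the WT range for both desaturases, and the log2 fold changes were 0.0064 (SE 0.152) and 0.044 (SE 0.120).

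Some of these genes overlap others on the genome. Of the 26, 4 share exon bases with another tested gene: *Fdft1* with *Ctsb* on the opposite strand (18.3% of its exon bases), *Cyp51* with *Akap9* on the opposite strand (3.76%), *Srebf1* with *Rai1* on the opposite strand (1.93%) and *Tm7sf2* with *Vps51* on the same strand (12.1%). *Fdps* shares 26.7% of its exon bases with *Gm43738*, an annotated gene on the same strand that was not tested. The library kit keeps the strand, but the strand setting of the counting was not given in the sources used here, so reads of these pairs may not be separated.

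Within the sets of cultures the values of the pathway lay in opposite directions. In set 1, 24 of the 26 genes were higher in Dp1Tyb 1 than in WT 1, all except *Pmvk* and *Acaca*, with a median log2 difference of 0.32 where the median of all genes tested was -0.014. In set 2, with 3 WT and 4 Dp1Tyb cultures, 21 of the 26 had a log2 fold change below 0, with a median of -0.073 where that of all genes was 0.014. The scaling holds the medians of all genes near 0. Set 1 holds 1 culture of each genotype and so has no replicate check. In set 2 none of the 26 genes was called by edgeR and 1 of 14575 genes was. In an edgeR fit of genotype by set, 0 of 14567 genes had an adjusted p below 0.05 and 400 (2.75%) an unadjusted one. Of the 26, 1 was among the latter, *Sc5d*, and the lowest adjusted p was 0.99, so a difference between the sets was not shown for any of the 26. The median over the genes moved to -0.067 without WT 1 and to 0.15 without WT 4.

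**Figure D3:**
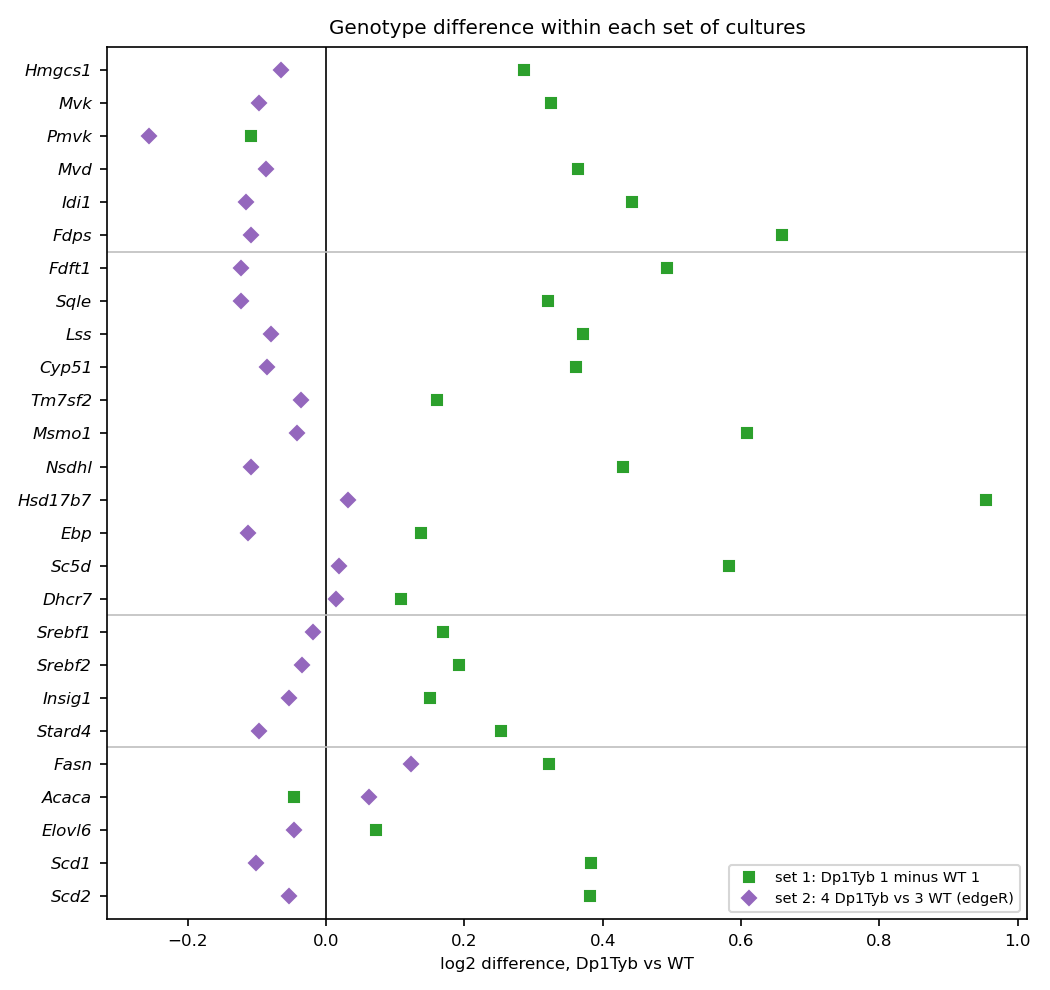
Log2 difference between Dp1Tyb and WT for each gene within set 1 (squares, Dp1Tyb 1 minus WT 1, no replicates) and within set 2 (diamonds, edgeR, 4 Dp1Tyb vs 3 WT cultures). Squares lie right of 0 for 24 of 26 genes and diamonds left of 0 for 21 of 26.

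Between cultures, most genes of the pathway lay high or low together, and the cultures at the ends were not of one genotype. Each gene's log2 CPM was set against its own mean over the 9 cultures. In WT 4, 25 of the 26 genes lay above their mean, all but *Ebp*, with a mean deviation of 0.27. In WT 1, 22 lay below, with a mean of -0.26. The Dp1Tyb cultures had mean deviations of 0.064, 0.21, -0.080, -7.6e-05 and -0.12, with 20, 19, 4, 13 and 1 genes above their mean. WT 2 and WT 3, at -0.048 and -0.028, stood near the middle. By genotype the mean deviation was -0.016 ± 0.217 (SD, n = 4) in WT and 0.013 ± 0.129 (n = 5) in Dp1Tyb. Over all genes tested, the median deviation of a culture lay between -0.0073 and 0.018. The scaling holds this median near 0, so it does not show how unusual the deviations of the pathway are, and no other group of genes was compared.

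The highest culture was WT 4 for 15 genes and Dp1Tyb 2 for 8, and the lowest was WT 1 for 14 and WT 2 for 7. In WT 4 the mean deviations of the groups were 0.32 for the mevalonate steps, 0.27 for squalene to cholesterol, 0.21 for regulators and transport and 0.26 for fatty acid synthesis. In WT 1 the mean was -0.29 for the mevalonate steps and -0.37 for squalene to cholesterol and -0.087 for fatty acid synthesis, where *Scd1* (-0.27), *Scd2* (-0.18) and *Fasn* (-0.15) lay below their means and *Acaca* (0.14) and *Elovl6* (0.025) above. In Dp1Tyb 2 it was 0.23, 0.24, 0.084 and 0.18 in that order, with *Fasn* at 0.67 and *Elovl6* and *Dhcr7* below their means at -0.21 and -0.37. WT 2 was near 0 in both sterol groups, at 0.0081 and 0.0038, and at -0.19 in fatty acid synthesis.

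**Figure D4:**
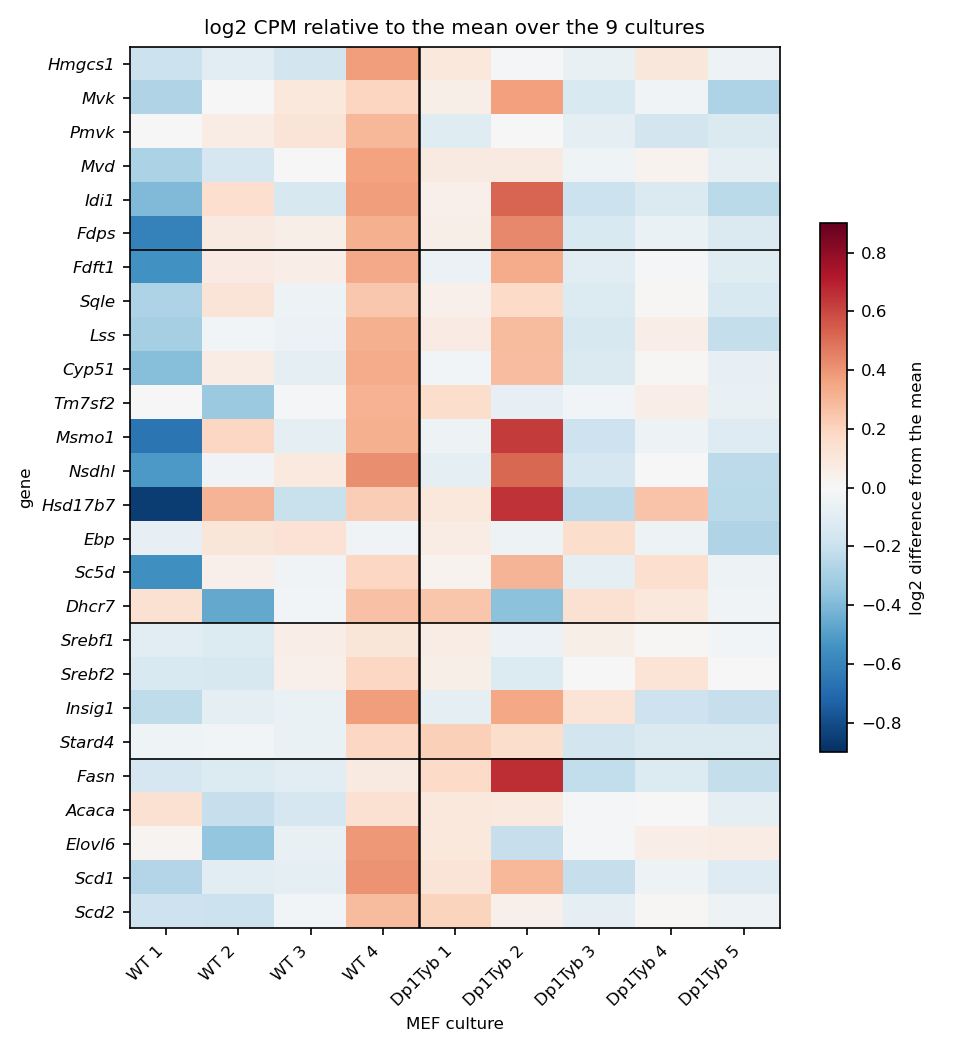
Log2 CPM of each gene relative to its mean over the 9 cultures, blue below and red above the mean, with cultures in columns and the genotypes divided by a line. WT 4 and most of Dp1Tyb 2 are red and WT 1 is mostly blue, from -0.86 for *Hsd17b7* in WT 1 to 0.67 for *Fasn* in Dp1Tyb 2.

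Some marker levels also differed between these cultures. Dp1Tyb 2, high for most of the pathway, had the lowest fibroblast sum (22900 CPM) and the lowest sum of the 7 adipocyte markers (28.7 CPM, against 43.1 to 136 in WT and up to 204 in Dp1Tyb 3). WT 4, the highest culture for the pathway, was in the middle for both sums, at 37200 and 99.1 CPM. WT 2, near the middle for the pathway, had the next lowest sums after Dp1Tyb 2, at 30700 and 43.1 CPM. The cultures with the lowest mean deviations of the pathway, WT 1, Dp1Tyb 5 and Dp1Tyb 3, had high fibroblast sums of 45800, 44400 and 47500 CPM. Dp1Tyb 4, in the middle for the pathway, had 44600 CPM. The fibroblast sum is mostly the collagen genes *Col1a1*, *Col1a2* and *Col3a1*, at 7922, 6488 and 2195 CPM in Dp1Tyb 2. Of the 9 fibroblast markers *Vim* went the other way, with its highest level, 4919 CPM, in Dp1Tyb 2, and *Thy1* was at 899.9 CPM there against 454 CPM in WT 1. The adipocyte sum is mostly *Lpl*, at 13.3 CPM in Dp1Tyb 2, where *Pparg* at 2.54 CPM was not low. Dp1Tyb 1 and Dp1Tyb 2 had macrophage sums of 8.32 and 8.39 CPM over 6 markers, where WT 4, also high for the pathway, had 80.6 CPM and Dp1Tyb 3 had 128 CPM. WT 1, low for the pathway, had the highest sum of 7 proliferation markers, 429 CPM, and WT 4 had 416 CPM, while the lowest was 273 CPM in Dp1Tyb 4. Schwann and neural markers summed to 29.4 to 60.1 CPM in WT and 8.71 to 28.7 CPM in Dp1Tyb, and skeletal muscle markers to 7.36 to 17.1 and 13.3 to 39.1 CPM. Endothelial markers summed to 6.90 to 14.8 CPM in WT and 4.55 to 17.2 CPM in Dp1Tyb, and epithelial markers to 8.01 to 10.6 and 7.23 to 10.7 CPM. The part of these cells in the levels of the 26 genes was not tested.

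The spread between cultures of one genotype was summarised as the SD of log2 CPM within genotype. Its median over the 26 genes was 0.225, against 0.218 over all genes tested and 0.160 over the tested genes above 10 CPM, a level that all 26 exceed on average. The SD was above these medians for 15 and 20 of the 26 genes. It was highest for *Hsd17b7* at 0.448, *Msmo1* at 0.379, *Nsdhl* at 0.338, *Idi1* at 0.323 and *Fdps* at 0.316, and lowest for *Srebf1* at 0.0845 and *Pmvk* at 0.0954. By group the median was 0.244 for squalene to cholesterol, 0.221 for fatty acid synthesis, 0.208 for the mevalonate steps and 0.141 for regulators and transport. The ratio of the highest to the lowest culture ran from 1.17 for *Srebf1* to 2.85 for *Hsd17b7*, with a median of 1.57. When each culture was left out in turn, the median SD of the 26 ran from 0.179 without WT 4 to 0.242 without Dp1Tyb 4. It was 0.191 without WT 1 and 0.202 in set 2 alone. The median of all genes in these settings is not given here.

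**Figure D5:**
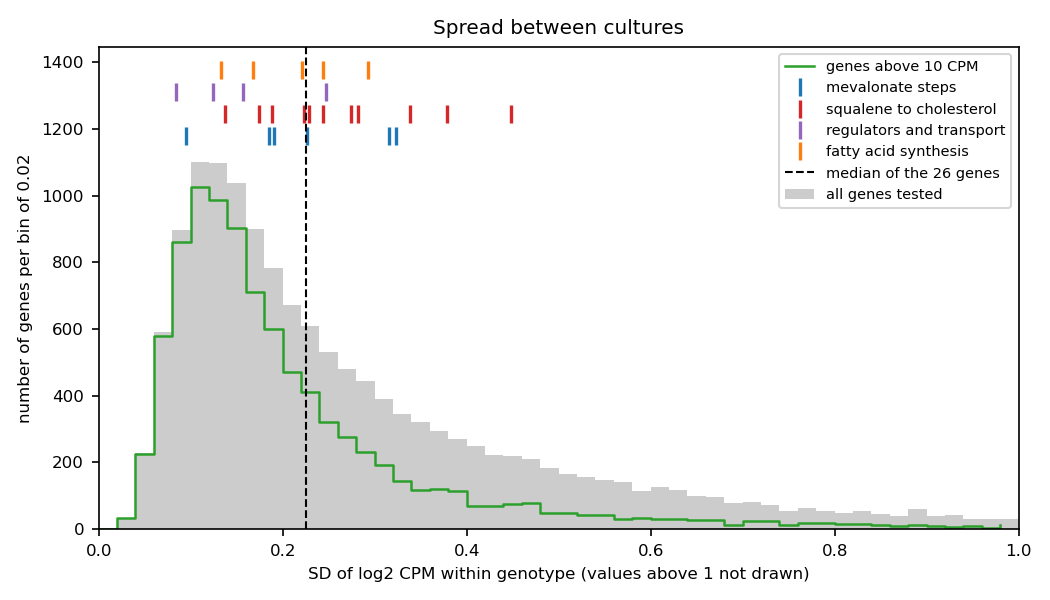
Number of genes by SD of log2 CPM within genotype, in bins of 0.02, for all genes tested (grey) and for the genes above 10 CPM (green line), with a tick for each of the 26 genes coloured by group. The dashed line is the median of the 26, 0.225, which lies right of the peak of both distributions, as do their own medians of 0.218 and 0.160.

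For 6 pairs of genes, chosen by role, levels were correlated over the 9 cultures with exact permutation tests and adjustment over the 6 pairs. The fatty acid enzymes *Fasn* and *Scd1* moved together, with Pearson's r = 0.756 (exact permutation p = 0.0163, adjusted p = 0.0489) and Spearman's rho = 0.883 (p = 0.00308, adjusted p = 0.0185). Without Dp1Tyb 2 and Dp1Tyb 1, the cultures farthest from the median of *Fasn*, r was 0.904 (exact permutation p = 0.0194), and within set 2 it was 0.753 (exact permutation p = 0.026). *Hmgcs1* and *Srebf2* gave r = 0.747 (exact permutation p = 0.0147, adjusted p = 0.0489) and rho = 0.733 (p = 0.0311, adjusted p = 0.0934). That relation rested on WT 4 and WT 1, since without them r was 0.429 (exact permutation p = 0.336), and within set 2 it was 0.685 (exact permutation p = 0.081).

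The other 4 pairs did not pass after adjustment. *Hmgcs1* and *Sqle* gave r = 0.696 (exact permutation p = 0.0333, adjusted p = 0.0665) and rho = 0.633 (p = 0.076, adjusted p = 0.152), with r = 0.224 without WT 4 and WT 1 and 0.617 in set 2. *Hmgcs1* and the feedback gene *Insig1* gave r = 0.543 (exact permutation p = 0.129, adjusted p = 0.193) and rho = 0.433 (p = 0.25, adjusted p = 0.30), with -0.141 without WT 4 and WT 1 and 0.507 in set 2. Across the branches, *Hmgcs1* and *Fasn* gave r = 0.271 (exact permutation p = 0.427, adjusted p = 0.512) and rho = 0.483 (p = 0.194, adjusted p = 0.291), with 0.263 without WT 4 and WT 1 and 0.183 in set 2. Without Dp1Tyb 2 alone, r of *Hmgcs1* and *Fasn* was 0.637 (exact permutation p = 0.0912). *Fasn* and *Srebf1* gave r = 0.0113 (exact permutation p = 0.979, adjusted p = 0.979) and rho = 0.333 (p = 0.385, adjusted p = 0.385), with 0.425 without Dp1Tyb 2 and Dp1Tyb 1 and -0.169 in set 2. All 9 values of a pair come from the same libraries.

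A further 38 genes of sterol and fatty acid metabolism were listed beside the 26, and 36 were tested. None was called, and none had an unadjusted p below 0.05, against 3.13% of all genes. Their log2 fold changes ran from -0.23 to 0.33, with 25 above 0 and a median of 0.041. Of 4 further genes of sterol synthesis, *Ggps1*, which makes geranylgeranyl diphosphate, had a log2 fold change of 0.12 (SE 0.072) and *Acat2*, the cytosolic thiolase of the first step, one of -0.064 (SE 0.133). Of 10 further genes of fatty acid synthesis, 9 were tested, the exception being *Thrsp* with at most 2 counts. *Acly*, which makes cytosolic acetyl-CoA from citrate, had 0.20 (SE 0.150), *Acss2*, which makes it from acetate, 0.10 (SE 0.185), and *Acacb*, the second carboxylase, 0.13 (SE 0.287).

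The proteins that carry, cut and remove SREBPs form a list of 5 genes with a median log2 fold change of 0.043. *Fbxw7*, a ubiquitin ligase subunit that removes nuclear SREBP, had 0.12 (SE 0.063), and the proteases *Mbtps2* and *Mbtps1* had 0.077 (SE 0.071) and -0.051 (SE 0.077). Of 9 other SREBP targets 8 were tested, with a median of 0.11, the exception being *Pnpla3* with at most 12 counts. *Aacs*, which activates acetoacetate, had 0.14 (SE 0.157). The 10 genes of sterol export, storage and the LXR receptors had a median of -0.018. Among them *Soat1*, which esterifies cholesterol, had 0.11 (SE 0.073) and *Ch25h*, which hydroxylates it, -0.23 (SE 0.480).

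The genes tested outside the 26 were ranked by the correlation of their log2 CPM with the mean of the 11 genes from squalene to cholesterol, over the 9 cultures and 14541 genes. *Tfb2m*, a mitochondrial transcription factor, ranked 1 with r = 0.960 and 18.4 to 23.4 CPM. *Dennd5a*, a regulator of Rab GTPases, ranked 2 with r = 0.938 and 157 to 179 CPM, and *Ppih*, a cyclophilin of the spliceosome, ranked 5 with r = 0.915 and 10.8 to 15.0 CPM. These r values are the highest of many over the same 9 libraries and are given as a description.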

How the data were processed

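RNA of 9 MEF cultures was sequenced from stranded mRNA libraries as paired-end reads. The authors trimmed adapters with Trim Galore, mapped reads to GRCm38 with TopHat2 2.0.12, discarded reads with several alignments and counted the rest per Ensembl gene with HTSeq, and they deposited these counts, which were used here without further change. The deposited normalised counts and the authors' DESeq2 1.6.3 table of Dp1Tyb vs WT (fold changes, p-values) were not used. Of the 43629 gene IDs, 42462 matched GENCODE M21, which gave symbols, positions and exon lengths.

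Genotypes were compared on the whole table with edgeR 4.0.16 (R 4.3.3) by the quasi-likelihood test with TMM scaling, the default filter on low counts and Benjamini-Hochberg adjustment over all 14567 genes tested. SEs were the log2 fold change over the root of the F statistic. Log2 CPM used a prior count of 2. Exact permutation tests and correlations were computed in Python 3.11.15 with numpy 2.4.6 and ranks from scipy 1.17.1, and RPKM used library totals and summed exon lengths. The procedure was tested on simulated data. Alternatives were DESeq2 1.42.0, other scalings and filters, set 2 alone, the set as a covariate, a replicate block and leaving out each culture. The genes above 10 CPM as a background and the fit of genotype by set were added after seeing the data.

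The 26 genes, the pathway and marker lists and the tests were chosen with earlier results of these data known. All 26 are named. Of each other list the 3 genes with the smallest p were to be named, and of the genes most like the squalene-to-cholesterol group the 5 with the highest r; genes that this rule takes and that are not named are not reported here. Replicates are cultures of separate embryos.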

Additional observations from a re-analysis of the deposited data

Results flagged for a closer look

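In each genotype the highest and the lowest culture of each of the 26 genes was compared with the nearest other culture by Dixon's ratio of the gap to the range, whose 95% critical value chance exceeds in about 1 in 20 groups. Of 52 groups 6 exceeded it, each time through a high culture. *Hmgcs1* in WT 4 was at 414.5 CPM where the next WT culture had 299.0 CPM (ratio 0.852), and *Stard4* in WT 4 was at 51.49 CPM where the next had 44.46 CPM (0.862). The other 4 were high in Dp1Tyb 2. *Fdps* was at 222.3 CPM there and at 170.8 CPM in the next Dp1Tyb culture (0.711), *Fdft1* at 186.4 and 147.1 CPM (0.80), *Msmo1* at 239.3 and 149.8 CPM (0.863) and *Nsdhl* at 87.53 and 60.95 CPM (0.744). The genes of a culture share a library, so these are not 6 separate events.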

How the results depend on the processing

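None of the 26 genes and none of the other pathway genes was called by edgeR or DESeq2 under any of the 18 alternatives, and the smallest adjusted p of any of the 26 was 0.88. Of 468 fold changes of the 26 under these alternatives 374 kept their sign and 94 changed it, none of them called. The number of all genes called was 67 by DESeq2 with its defaults and 67 with its beta prior, 1 in set 2 alone and 2 to 26 when each culture was left out in turn (leave-one-out), the lowest without WT 2 and without WT 3.

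With DESeq2 size factors in edgeR the log2 fold change was 0.0063 for *Mvk* and 0.0050 for *Insig1*, by DESeq2 with its defaults 0.0063 and 0.0051, with its beta prior 0.0049 and 0.0038. For *Mvk* it was 0.00044 with TMM computed without the duplicated region and 0.00023 with at least 10 counts in every culture. In set 2 alone it was -0.065 for *Hmgcs1*, -0.088 for *Mvd*, -0.12 for *Idi1*, -0.11 for *Fdps*, -0.12 for *Fdft1*, -0.080 for *Lss*, -0.085 for *Cyp51*, -0.036 for *Tm7sf2*, -0.042 for *Msmo1*, -0.11 for *Nsdhl*, -0.018 for *Srebf1*, -0.035 for *Srebf2*, -0.10 for *Scd1* and -0.054 for *Scd2*.

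With the replicate number as a block, which leaves out Dp1Tyb 5, edgeR called 0 genes and 800 had an unadjusted p below 0.05, and the log2 fold change was 0.061 for *Mvk*, 0.018 for *Sqle*, 0.0010 for *Ebp*, 0.054 for *Insig1* and 0.0068 for *Stard4*. The labels do not say that equal numbers are related, the correlations of same-numbered cultures' deviations were 0.26, 0.74, 0.031 and 0.38, and only WT 2 correlated best with its own number, so the numbers were not taken as pairs.

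When each culture was left out in turn, the log2 fold change ran from -0.043 to 0.17 for *Hmgcs1*, -0.11 to 0.071 for *Mvk*, -0.068 to 0.16 for *Mvd*, -0.15 to 0.15 for *Idi1*, -0.10 to 0.18 for *Fdps*, -0.14 to 0.14 for *Fdft1*, -0.11 to 0.065 for *Sqle*, -0.065 to 0.15 for *Lss*, -0.094 to 0.15 for *Cyp51*, -0.092 to 0.13 for *Tm7sf2*, -0.087 to 0.23 for *Msmo1*, -0.14 to 0.17 for *Nsdhl*, -0.10 to 0.00098 for *Ebp*, -0.10 to 0.13 for *Dhcr7*, -0.010 to 0.075 for *Srebf1*, -0.026 to 0.095 for *Srebf2*, -0.10 to 0.15 for *Insig1*, -0.074 to 0.050 for *Stard4*, -0.018 to 0.24 for *Fasn*, -0.031 to 0.090 for *Acaca*, -0.13 to 0.13 for *Elovl6*, -0.074 to 0.17 for *Scd1* and -0.0098 to 0.17 for *Scd2*. *Pmvk* ran from -0.26 to -0.15, its sign being nearly fixed by groups that did not overlap. *Hsd17b7* ran from 0.022 to 0.36 and *Sc5d* from 0.0093 to 0.24, both lowest without WT 1.

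The correlation of *Hmgcs1* and *Sqle* was 0.705 centred within genotype and 0.509 to 0.790 leaving out each culture, that of *Hmgcs1* and *Insig1* -0.141 without the 2 cultures farthest from the median and 0.0967 to 0.678 leaving out each culture, that of *Hmgcs1* and *Fasn* 0.212 to 0.637 and that of *Fasn* and *Scd1* 0.730 to 0.926 leaving out each culture, that of *Hmgcs1* and *Srebf2* 0.685 in set 2, 0.429 without the 2 farthest and 0.567 to 0.866 leaving out each culture, and that of *Fasn* and *Srebf1* -0.0341 centred, -0.169 in set 2 and -0.103 to 0.484 leaving out each culture. The cause of these changes was not tested.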
